A study of Oryza sativa Japonica Group with 15 samples.

Results

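Acibenzolar-S-methyl (ASM) and beta-aminobutyric acid (BABA), a pair of chemical inducers of plant disease resistance, were compared in roots of young Kitaake rice plants (Oryza sativa Japonica Group). The comparison used the 3 ASM and the 3 BABA libraries, 6 of the 15 libraries of the series, and the 3 mock libraries served as a reference for direction. ASM plants had been sprayed on their leaves with 250 µM ASM and BABA plants with 3.5 mM R,S-BABA, each on day 13 after transplantation and in 0.1% Tween 20, and mock plants had the same schedule without an inducer. Roots were taken on day 14, and each library holds the roots of 4 plants that were pooled. No group carried a mutation or transgene. Because the doses differed, each difference below is one of compound and dose together. Expression was measured by sequencing the 3′ ends of transcripts, and values are normalised reads, which are read counts divided by 1 size factor per library. A gene is said to be called, higher or lower when its adjusted p was under 0.05, and p-values were adjusted over the 18316 genes, of 36747 features, that averaged 5 or more normalised reads.

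ASM acts in place of salicylic acid, the hormone of systemic resistance against many pathogens. In rice its action on resistance is known to need the transcription factor WRKY45 and the coactivator NPR1, which act in separate branches of salicylate signalling. BABA, a non-protein amino acid, is known in Arabidopsis for priming, a state in which defence genes respond faster to a later attack. Both compounds were applied to leaves, so the root values report on the tissue away from the sprayed one.

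The libraries held between 4130194 and 6717016 reads in the BABA group and between 6066946 and 6911751 in the ASM group. By the chi-square of their reads, ASM replicate 1 and BABA replicate 3 stood apart from the other libraries of their groups. On the recovered reads, the chi-square per degree of freedom was 5.28 between ASM replicates 2 and 3, but 19.3 and 25.9 between each of them and replicate 1. In the BABA group it was 4.17 between replicates 1 and 2, and 13.8 and 13.3 for their comparisons with replicate 3. The root mean square log2 distance ran from 0.49 to 0.68 over the pairs of 1 ASM and 1 BABA library, and the closest such pair was ASM replicate 1 with BABA replicate 3. Within groups it ran from 0.49 to 0.60 for ASM and from 0.54 to 0.59 for BABA. This distance set the same libraries apart less clearly. ASM replicate 2 lay 0.52 from replicate 1 and 0.49 from replicate 3, and replicates 1 and 3 were 0.60 apart. The farthest pair of 1 ASM and 1 BABA library was ASM replicate 3 with BABA replicate 3 (0.68). BABA replicate 3 lay 0.59 and 0.58 from replicates 1 and 2, which were 0.54 from each other. Values without ASM replicate 1 or BABA replicate 3 are given beside the results that move with them. Below, these are called the libraries that stood apart, a label that rests on the chi-square alone. Markers of the sampled tissue were present in every library: the summed level of RCc3, Lsi1 and Lsi2, which are genes typical of rice roots, was 13150 to 17360 normalised reads with ASM, 20430 to 23570 with BABA and 20780 to 24100 in mock. Green shoot genes (6 small subunit and chlorophyll-binding protein genes) summed to 15.3 to 85.5 with ASM, 34.8 to 83.4 with BABA and 19.8 to 208 in mock.

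Few genes passed the test between roots of ASM plants and roots of BABA plants. Of the 18316 genes, 55 were called (0.3%), 39 of them higher with ASM (0.213%) and 16 lower (0.0874%). Among these genes were WRKY62, WRKY76 and WRKY45, transcription factors of the salicylate branch, and GH3-8, which joins auxin to amino acids, and all 4 were higher with ASM. The median difference was 0.96 on the log2 scale for the genes called higher, a 1.95-fold difference, and -1.0 for those called lower, a 2.00-fold difference. In all 55 the 3 ASM values lay on 1 side of the 3 BABA values. This is a description, because the genes had been called by the same difference. Among all genes tested the groups did not overlap for 13.3%. The smallest difference that was called was 0.50 (1.41-fold), and the 95% confidence interval of a typical gene reached 0.44 on either side of its estimate (median half-width). Larger differences were mostly not called either: of 367 genes with an absolute log2 difference over 1, 25 were called. With 3 libraries a group, a gene that was not called may thus still differ by more than these values. Over all genes tested the median difference was 0.01, and 51.8% of the differences were positive.

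**Figure D1:**
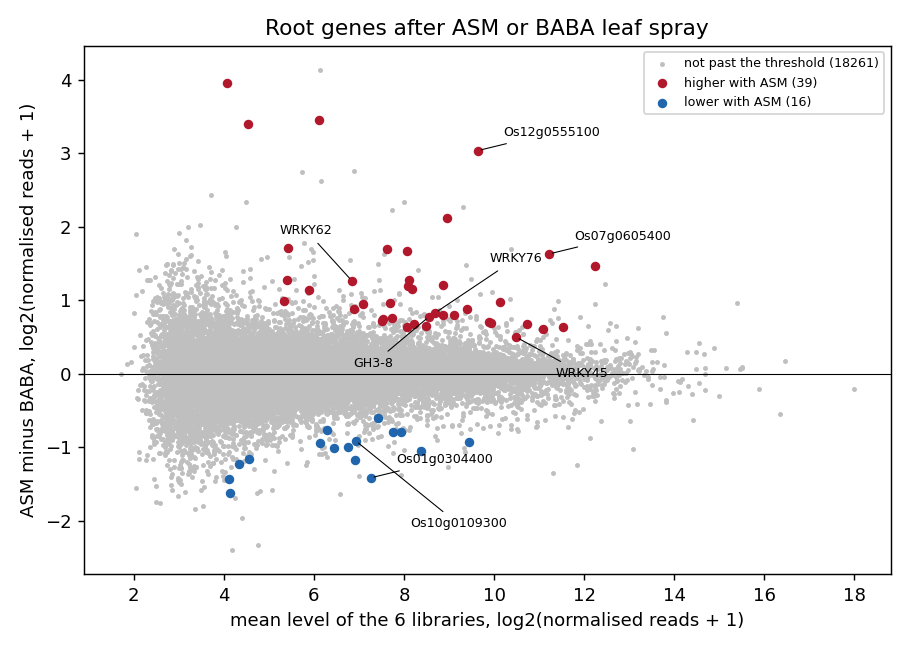
Difference between ASM and BABA (y axis, log2 of normalised reads + 1, mean of 3 libraries each) against the mean level of the 6 libraries (x axis, same scale) for 18316 genes. The 39 genes called higher with ASM are red, the 16 called lower are blue, and Os12g0555100 stands out among the abundant genes with a difference of 3.04.

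The place of the mock libraries was used to describe from which side the called genes differed. Of the 39 genes higher with ASM, the mock mean lay below the BABA mean in 26, between the groups but nearer to BABA in 11, and nearer to ASM in 2. In the 16 genes lower with ASM it lay above the BABA mean in 8, nearer to BABA in 7 and nearer to ASM in 1. The mock mean lay beyond the ASM mean in none of the 55 genes, against 30.4% of all genes tested. The median log2 difference from mock was 1.28 for ASM and 0.15 for BABA in the genes called higher, and -1.16 for ASM and -0.01 for BABA in those called lower. Both comparisons with mock share the mock libraries, and the genes had been chosen by their difference between ASM and BABA, so these values are a description. Against mock, 830 genes were called for ASM (4.53%) and 46 for BABA (0.251%).

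**Figure D2:**
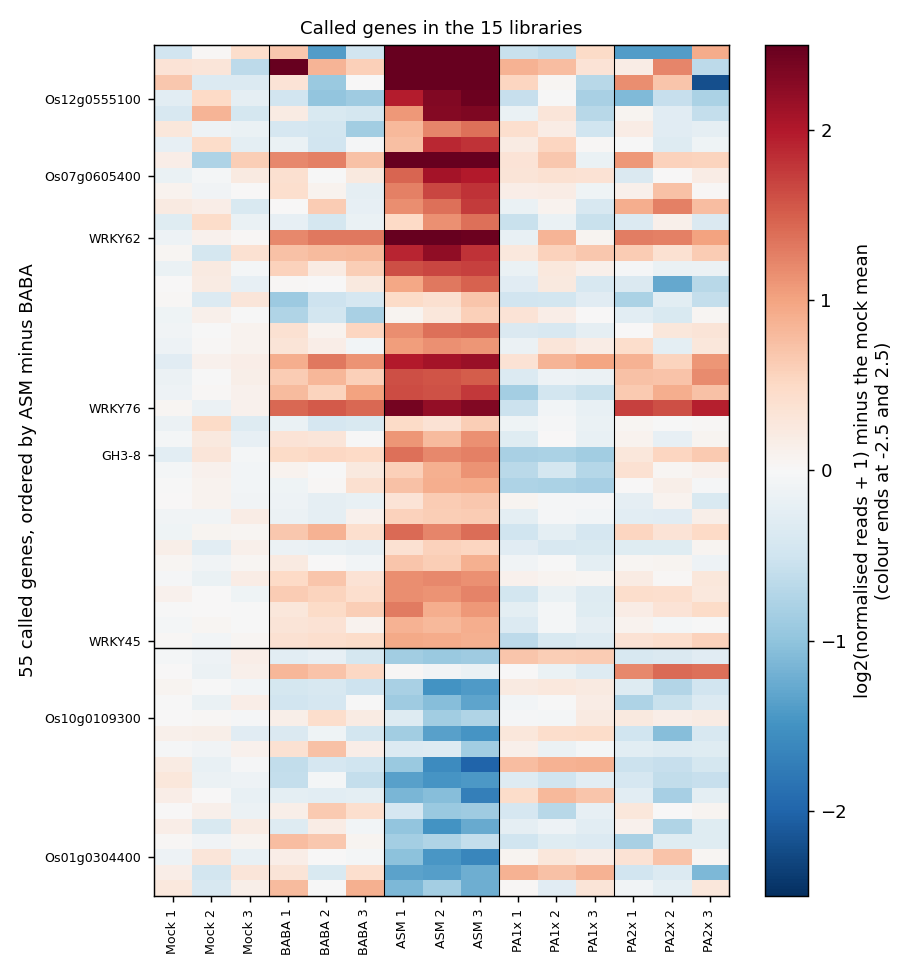
The 55 called genes (rows, ordered by the difference between ASM and BABA) in the 15 libraries (columns), coloured by log2(normalised reads + 1) minus the mock mean, with the colour scale ending at -2.5 and 2.5. The strongest colours lie mostly in the 3 ASM columns, the BABA columns are mostly paler, and WRKY62 and WRKY76 are also raised in BABA and PA2x; PA1x and PA2x are piperonylic acid sprayed on 1 or on 2 days.

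The salicylate and defence WRKY list, which also holds NPR1 and NPR3, was the only list with called members in the limma fit of all libraries. Its median difference of 0.10 was smaller than those of several other lists, such as 0.59 for diterpenoid phytoalexins. Of the 12 measured members of the salicylate and defence WRKY list, 3 were called higher with ASM, beside 0.213% of all genes tested. None was called lower, and the other 9 did not pass the test. The list was chosen with earlier results of these data known, so this count is a description. WRKY62 (Os09g0417800), a regulator of defence genes that acts downstream of WRKY45, measured 62.9, 68.4 and 68.6 normalised reads in the BABA libraries and 169, 164 and 152 in the ASM libraries. Every ASM value was above every BABA value, and the mock mean, 26.8 ± 2.26 (SD, n = 3), lay below both. Its level was 2.40-fold higher with ASM (log2 difference 1.26 ± 0.21 SE, adjusted p = 0.0175). WRKY76 (Os09g0417600), a repressor of defence genes and the neighbour of WRKY62 in the genome, measured 289, 310.4 and 291 with BABA and 563, 491 and 532 with ASM. It was 1.78-fold higher with ASM (0.83 ± 0.13 SE, adjusted p = 0.0157), and the mock mean was 107 ± 10.3. WRKY45 (Os05g0322900) measured 1160, 1184 and 1222 with BABA and 1711, 1691 and 1644 with ASM. The 6 values formed a pair of tight groups, 1189 ± 31.2 and 1682 ± 34.6, against 889 ± 38.8 in mock. The difference was 1.41-fold (log2 0.50 ± 0.10 SE, adjusted p = 0.0397), the smallest of the 55.

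These 3 genes thus lay in the order mock, BABA, ASM. For WRKY62 and WRKY76 both steps were called: the differences of BABA from mock were 1.29 (adjusted p = 0.0173) and 1.47 (adjusted p = 0.000118). For WRKY45 the difference of BABA from mock was 0.42 and missed the threshold (adjusted p = 0.084). Their calls between ASM and BABA were close to the threshold. With ASM replicate 1 left out all 3 were still called, with differences of 1.23, 0.78 and 0.49 for WRKY62, WRKY76 and WRKY45. Without BABA replicate 3 the differences were 1.29, 0.82 and 0.52, and WRKY45 was not called (adjusted p = 0.0771). WRKY45 was also lost without ASM replicates 2 or 3 and without BABA replicates 1 or 2, WRKY62 was lost in the same 4 fits, and WRKY76 was lost without ASM replicate 3 or BABA replicate 1 (adjusted p between 0.064 and 0.168 in all these losses). Over the 6 fits with 1 library left out, the differences stayed between 1.22 and 1.31 for WRKY62, 0.78 and 0.88 for WRKY76 and 0.48 and 0.52 for WRKY45. WRKY45 passed in 9 of 19 other settings: it was not called either with quantile normalisation (adjusted p = 0.124), with reads thinned to the smallest library (0.11), with only the 6 ASM and BABA libraries (0.18) or without both libraries that stood apart (0.057). Thinned reads also ended the call of WRKY62 (adjusted p = 0.0546), and a replicate block over only the 6 libraries ended all 3 (adjusted p = 0.133 to 0.776).

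The remaining salicylate genes were near equal or uncertain. NPR1 (Os01g0194300), the salicylate coactivator, measured 450.1, 549.7 and 365 with BABA and 452, 438 and 477 with ASM. Its ASM values lay inside the BABA range, and the difference was 0.02 with a 95% confidence interval from -0.33 to 0.38 (adjusted p = 0.986). NPR3 (Os03g0667100), a relative of NPR1, measured 269, 319 and 313 with BABA and 426, 353 and 359 with ASM. Its groups did not overlap, as for 7.15% of all genes tested in this direction, but the difference of 0.33 was not called (adjusted p = 0.335). For WRKY13, WRKY24, WRKY28, WRKY53, WRKY70, WRKY71 and WRKY74, other WRKY factors of rice defence, the groups overlapped and the differences ran from -0.13 to 0.16. The median over the 12 members was 0.10, and 9 of them were positive. This median was 0.02 without ASM replicate 1, and it turned to -0.02 without BABA replicate 3 and to -0.10 without both.

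**Figure D3:**
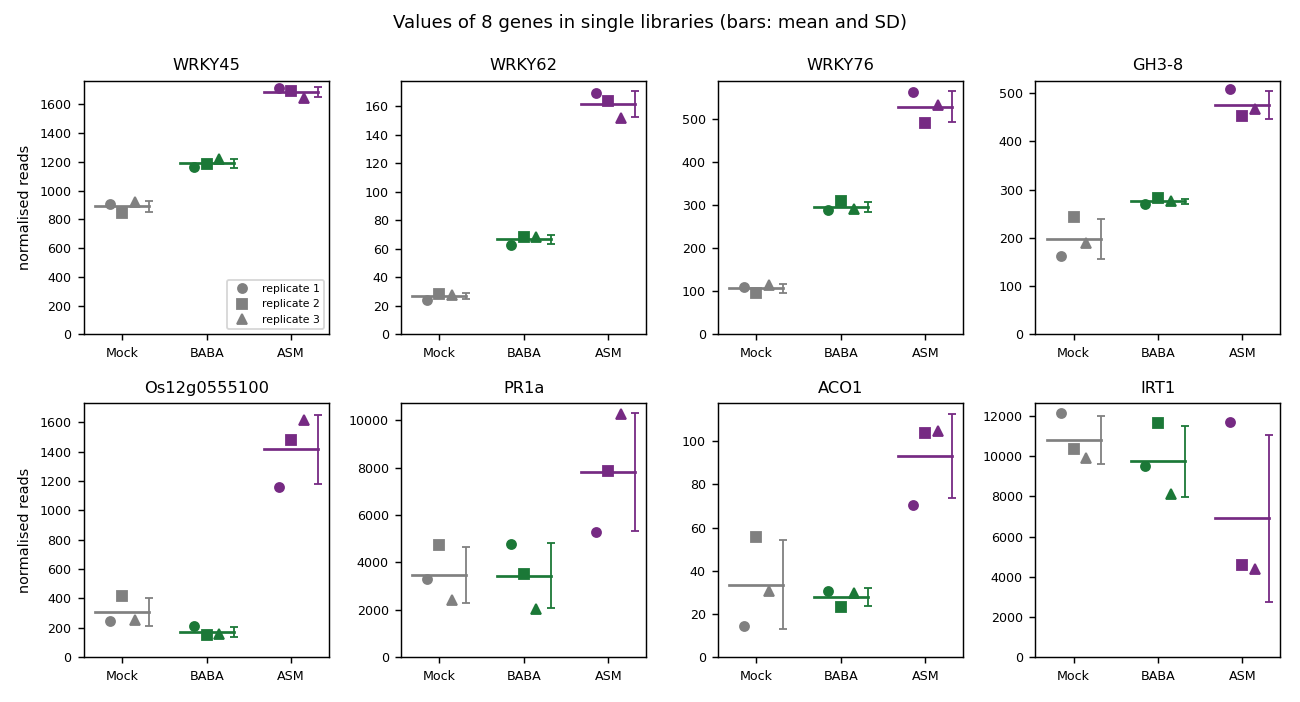
Normalised reads (y axis, from 0) of 8 genes in the single mock, BABA and ASM libraries (x axis); points are libraries with a symbol per replicate number, horizontal lines are means and error bars are SD (n = 3). WRKY45, WRKY62, WRKY76, GH3-8 and Os12g0555100 have ASM values well above the BABA values, whereas ASM replicate 1 is the lowest ASM library for PR1a and ACO1 and the highest for IRT1.

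GH3-8 (Os07g0592600), an auxin-conjugating enzyme that acts in rice disease resistance, was picked out after its values were seen. It measured 271, 282 and 275 with BABA, 507, 451.5 and 467 with ASM and 198 ± 40.8 in mock. The ASM level was 1.72-fold higher (log2 0.78 ± 0.13 SE, adjusted p = 0.0204). The call was lost when any 1 library other than ASM replicate 1 was left out (adjusted p between 0.055 and 0.112) and without both ASM replicate 1 and BABA replicate 3 (0.0538), while the difference stayed between 0.73 and 0.82.

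The 2 genes with the smallest p in each direction carry no name in the sources used here. They too were picked out after their values were seen. Os12g0555100 measured 211, 148 and 158 normalised reads with BABA and 1158, 1479.6 and 1617 with ASM, and 304 ± 95.5 in mock. The groups were far apart, at 8.21-fold (log2 3.04 ± 0.23 SE, 95% confidence interval 2.55 to 3.53, adjusted p = 1.066e-05). It remained called in all 19 other settings, and without both ASM replicate 1 and BABA replicate 3 the difference was 3.12. By its identifier it lies between RSOsPR10 (Os12g0555000) and PR10b (Os12g0555200), neither of which was called. Os07g0605400 measured 1307, 980.5 and 1174 with BABA and 2736, 4185 and 3922 with ASM, a 3.10-fold difference (log2 1.63 ± 0.17 SE, adjusted p = 0.000439). Mock was at 998 ± 141, and the BABA level overlapped it. Os01g0304400 was lower with ASM, at 104, 77.0 and 68.7 against 240.4, 215 and 208 with BABA. Its difference was -1.41 ± 0.18 SE (2.67-fold lower, adjusted p = 0.00292), and mock, at 217 ± 42.8, was near BABA. Os10g0109300 measured 144, 178 and 151 with BABA and 104, 71.2 and 76.4 with ASM (log2 -0.91 ± 0.14 SE, 1.88-fold lower, adjusted p = 0.0155). The first 3 of these genes were among the 6 that passed the test with each of the 6 libraries left out in turn, and Os10g0109300 was not.

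Pathogenesis-related proteins are secreted or intracellular products of induced defence, and none of the 7 measured members of their list was called by limma, edgeR or DESeq2. The called gene Os12g0555100 was not in this list, though by its identifier it lies between the members RSOsPR10 and PR10b. At an unadjusted p under 0.05, 2 of the 7 passed, beside 10.7% of all genes tested. PR1a (Os07g0129200), a marker of salicylate responses, measured 4761, 3524 and 2019.8 with BABA and 5292, 7882 and 10271 with ASM. The groups did not overlap, as for 7.15% of all genes tested in this direction, yet ASM replicate 1 was close to BABA replicate 1. The difference of 1.22 ± 0.36 SE had a 95% confidence interval from 0.46 to 1.98 (adjusted p = 0.187, and 0.163 without both libraries that stood apart). Without ASM replicate 3 the difference was 0.997 (adjusted p = 0.575). PBZ1 (Os12g0555500), a PR10 protein, ranged from 17045 to 46821 with BABA and from 30433 to 76779 with ASM, with overlapping groups (0.97, adjusted p = 0.438). RSOsPR10 and PR10b, the neighbours of Os12g0555100 by identifier, ranged over 5362 to 18204 and 9394 to 44193 with BABA and over 8275 to 25560 and 16486 to 49691 with ASM. Their differences were 0.55 (adjusted p = 0.758) and 0.35 (adjusted p = 0.886). In each of these 3 PR10 genes BABA replicate 3 was the lowest BABA library and ASM replicate 1 the lowest ASM library. Replicate 3 was also the lowest library of mock and of both piperonylic acid groups in each of them, so low values in replicate 3 were not particular to BABA. The chitinase genes Cht1, Cht3 and Cht8 differed by 0.55, -0.04 and -0.11, all with overlapping groups. Over the 7 members 5 were positive, with a median of 0.55, which was 0.07 without BABA replicate 3, 0.19 without ASM replicate 3 and 0.93 without ASM replicate 1. PR10 and chitinase genes have near copies and may share reads. Whether Os12g0555100 shares reads with its more abundant neighbours was not tested.

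Enzymes of diterpenoid phytoalexins, the antimicrobial terpenes of rice, varied widely between libraries. Of 10 measured members 8 were positive, none was called by limma, edgeR or DESeq2 (1 at an unadjusted p under 0.05, beside 10.7% of all genes tested), and the median was 0.59. CPS4 (Os04g0178300), the first committed enzyme towards momilactones, measured 950.3, 924 and 234 with BABA and 382, 862 and 1531 with ASM. The groups overlapped in part, with a difference of 0.43 and a 95% confidence interval from -0.96 to 1.82 (adjusted p = 0.887). Its sign turned to -0.24 without BABA replicate 3. CYP71Z7 (Os02g0570700), a cytochrome P450 of the phytocassane branch, had the largest difference of the list, 1.63 (adjusted p = 0.391), with 184, 84.8 and 32.1 against 142, 261 and 416. The list median was -0.15 without BABA replicate 3, 0.17 without ASM replicate 3, 0.93 to 0.98 without BABA replicate 1 or 2, 1.09 without ASM replicate 1 and 0.34 without both libraries that stood apart. Within the momilactone cluster the differences took both signs, with -0.39 for KSL4, a diterpene synthase, -0.30 for CYP99A2 and 1.04 for CYP99A3, both cytochrome P450 enzymes, and none of them passed the test.

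**Figure D4:**
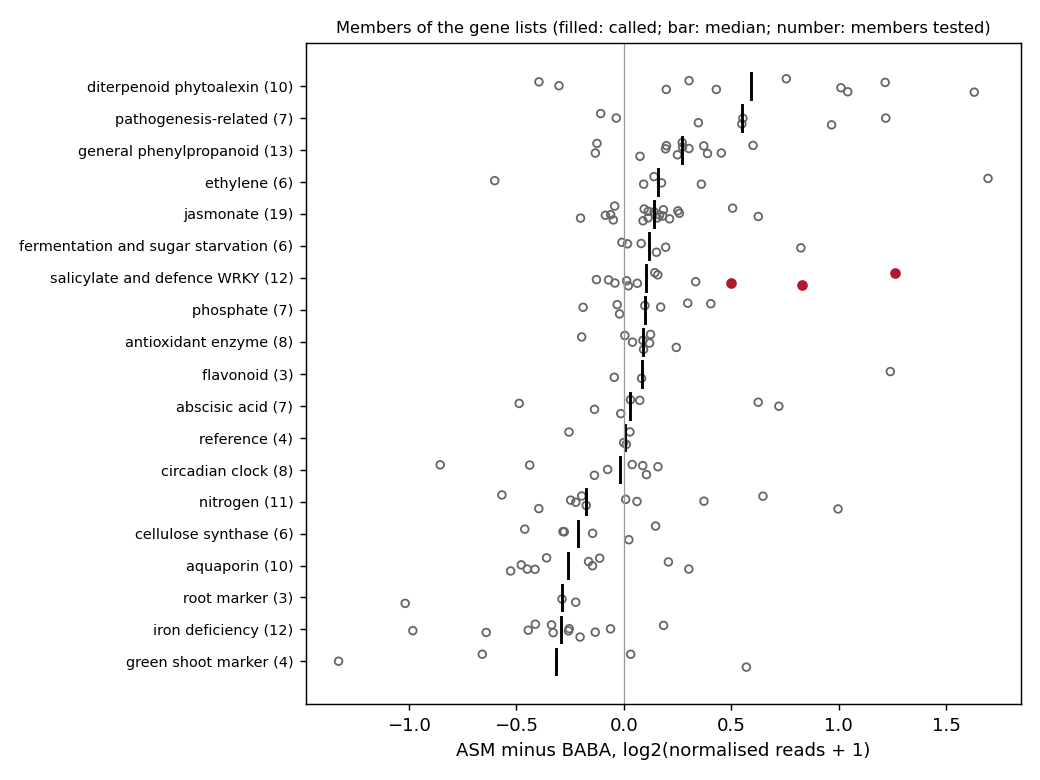
Difference between ASM and BABA (x axis, log2 of normalised reads + 1) of the measured members of 19 gene lists (y axis, number of members tested in parentheses); open points are members that were not called, filled points called members and black bars list medians. The only filled points are WRKY45, WRKY62 and WRKY76, and the iron and aquaporin lists lie mostly below 0.

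The jasmonate list, with enzymes of jasmonate synthesis, its receptors and the JAZ repressors, had 14 of 19 members positive and a median of 0.14. None was called by limma, edgeR or DESeq2, and 3 of 19 passed at an unadjusted p under 0.05, beside 10.7% of all genes tested. The median was 0.07 without ASM replicate 3, 0.03 without BABA replicate 3 and 0.08 without both libraries that stood apart. OPR1 (Os06g0216300), a reductase of the oxophytodienoate reductase family, measured 524, 532 and 438 with BABA and 929.8, 622 and 778 with ASM. Its groups did not overlap, as for 7.15% of all genes tested in this direction, and the difference was 0.63 ± 0.18 SE (adjusted p = 0.172). JAR1 (Os05g0586200), the enzyme that joins jasmonate to isoleucine and so activates it, measured 376, 368 and 344 with BABA and 458, 422 and 422 with ASM, also without overlap (0.26 ± 0.11 SE, adjusted p = 0.408). It had been called higher than mock with each compound, by 0.90 with ASM (adjusted p = 0.000165) and 0.64 with BABA (adjusted p = 0.0217). MYC2 (Os10g0575000), the main transcription factor of jasmonate responses, differed by 0.21 (adjusted p = 0.415). The 10 JAZ genes differed by -0.09 to 0.25, the allene oxide synthase genes AOS1 and AOS2 by 0.17 and 0.51, and the receptor genes COI1a and COI1b by -0.04 and -0.20, and all these groups overlapped.

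The general phenylpropanoid list holds phenylalanine ammonia-lyase (PAL), cinnamate 4-hydroxylase (C4H) and 4-coumarate CoA ligase (4CL) genes, the entry to lignin and many phenolic defence compounds. Of 13 measured members 11 were positive, none was called by limma, edgeR or DESeq2 (1 at an unadjusted p under 0.05, beside 10.7% of all genes), and the median was 0.27. It was 0.12 without ASM replicate 3, and 0.05 without BABA replicate 3 and without both libraries that stood apart. PAL4 (Os02g0627100) measured 4247, 4105 and 2982 with BABA and 4952, 4665 and 5786 with ASM. It was the single member whose groups did not overlap, as for 7.15% of all genes tested in this direction. Its difference was 0.45 ± 0.15 SE (adjusted p = 0.268). PAL1 (Os02g0626100) ranged only from 34810.0 to 35969 with BABA and from 35785 to 39466 with ASM (0.08, 95% confidence interval -0.23 to 0.38). For PAL2, PAL3, PAL5, PAL6 and PAL7 the differences were 0.25, 0.39, -0.13, 0.19 and 0.27, and for C4H1, C4H3 and C4H4 they were 0.20, 0.60 and 0.37. PAL3 came nearest to the threshold among these 8 genes (adjusted p = 0.496). The PAL and C4H genes are families of near copies, and C4H3 was low, at 3.57 to 15.3 normalised reads in the 6 libraries, where 3 reads correspond to 2.67 to 4.84 normalised reads.

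ACO1 (Os09g0451000), an oxidase that makes ethylene from its precursor, showed the largest listed difference short of the threshold. It measured 30.7, 23.2 and 29.4 with BABA, 70.6, 104 and 104.7 with ASM and 33.5 ± 20.7 in mock. All ASM values exceeded all BABA values, as in 7.15% of all genes tested. The level was 3.24-fold higher with ASM (log2 1.70 ± 0.40 SE, 95% confidence interval 0.84 to 2.55, adjusted p = 0.0934). The adjusted p was 0.03 when only the 6 ASM and BABA libraries entered the fit and 0.00313 with DESeq2, so the call depended on the estimate of the spread. Without ASM replicate 1 the difference was 1.88 (adjusted p = 0.0544), without BABA replicate 3 it was 1.74 (0.151), and without both it was 1.93 (0.0838). ACO3, another such oxidase, ACS2, a synthase of the precursor, and EIL1, a transcription factor of ethylene signalling, differed by 0.18, 0.14 and 0.09, and ACS1, a second synthase, differed by -0.60, none called. RAmy3D (Os08g0473900), an alpha-amylase gene induced by sugar starvation, measured 21.0, 41.0 and 26.7 with BABA and 69.6, 37.5 and 51.3 with ASM, with overlapping groups (0.82, adjusted p = 0.373).

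Genes of iron uptake were mostly lower with ASM in their point estimates, and none was called with all libraries by limma, edgeR or DESeq2 (2 of 12 at an unadjusted p under 0.05, beside 10.7% of all genes tested). In rice, roots take up iron both as free ions and as chelates with mugineic acids, which are built from nicotianamine. Of the 12 measured members of the list 11 were negative, with a median of -0.29, and 48.2% of all genes tested were negative. IRT1 (Os03g0667500), a transporter of ferrous iron, measured 9501, 11647 and 8108 with BABA and 11709, 4592 and 4404 with ASM. ASM replicate 1 lay above all BABA libraries and the other 2 ASM libraries lay below them all, and the difference was -0.64 ± 0.31 SE (adjusted p = 0.484). YSL15 (Os02g0650300), which imports iron chelates, measured 10797, 11119 and 9192 with BABA and 12460, 5790 and 6496 with ASM (-0.41, adjusted p = 0.594). The same split of ASM replicate 1 from replicates 2 and 3 was seen in NAS1 and NAS2, nicotianamine synthases, TOM1, an exporter of deoxymugineic acid, and IRO2, a transcription factor of the iron response. Without ASM replicate 1, IRT1 was called lower at -1.10 (adjusted p = 0.0345) and IRO2 at -0.57 (adjusted p = 0.0486), and the list median was -0.54. Leaving out either of the other ASM libraries moved the values the other way: the list median was -0.13 without ASM replicate 2 and -0.18 without replicate 3, IRT1 was at -0.43 and -0.40, and NAS1, NAS2 and NAAT1, an aminotransferase of mugineic acid synthesis, were at -0.08, -0.0178 and 0.08 without replicate 2. Without BABA replicate 3 the median was -0.27 and IRT1 was at -0.77 (adjusted p = 0.431). Without both libraries that stood apart the median was -0.52, IRT1 was called at -1.23 (adjusted p = 0.0392) and IRO2 was not (adjusted p = 0.0969). IRT2 (Os03g0667300), a second ferrous iron transporter, was the single member whose groups did not overlap, with 22.6, 15.04 and 14.3 against 8.95, 6.74 and 8.73 (-0.98, adjusted p = 0.328). Of all genes tested, 6.16% had groups apart in this direction.

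Nitrogen genes had no common direction, with 5 positive and 6 negative among 11 measured and a median of -0.17. None was called by limma, edgeR or DESeq2, and 2 of 11 passed at an unadjusted p under 0.05, beside 10.7% of all genes tested. The median was -0.30 without ASM replicate 1, 0.04 without ASM replicate 2, -0.09 without BABA replicate 2 and -0.42 without both libraries that stood apart. NIA1 (Os08g0468100), a nitrate reductase, measured 474, 469 and 525 with BABA and 524, 274 and 249 with ASM, and 787 ± 17.4 in mock. ASM replicate 1 was again at the BABA level, and the difference was -0.57 ± 0.22 SE (adjusted p = 0.333), -0.90 without ASM replicate 1 (adjusted p = 0.0132), -0.37 without ASM replicate 3 (0.808), -0.52 without BABA replicate 3 (0.447) and -0.85 without both libraries that stood apart (0.0316). LHT1 (Os08g0127100), an amino acid transporter known in Arabidopsis to take part in responses to BABA, measured 4839, 5348 and 4654 with BABA and 6763, 4473 and 4524 with ASM. Its difference was 0.06 with a 95% confidence interval from -0.26 to 0.39 (adjusted p = 0.941), and it turned to -0.13 without ASM replicate 1. AS1 (Os03g0291500), an asparagine synthetase, measured 134, 209 and 193 with BABA and 305, 224 and 307 with ASM. Its groups did not overlap, as for 7.15% of all genes tested in this direction, and it was not called (0.65, adjusted p = 0.510). Among phosphate genes PT8 (Os10g0444700), a phosphate transporter, ranged from 3554 to 4134 with BABA and from 4535 to 5977 with ASM (0.41, adjusted p = 0.219).

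Aquaporins, the water channels of root membranes, were negative in 8 of 10 measured members, with a median of -0.26. None was called by limma or edgeR, 2 were by DESeq2, and 5 of 10 passed at an unadjusted p under 0.05, beside 10.7% of all genes tested. In 6 of them all ASM values were below all BABA values, against 6.16% of all genes tested. TIP1;1 (Os03g0146100), a channel of the vacuole membrane, measured 4818, 4845 and 4354 with BABA and 3809, 3323 and 2975 with ASM (-0.48 ± 0.11 SE, adjusted p = 0.0952). TIP2;2 (Os06g0336200) measured 4199.7, 4289.8 and 3913 with BABA and 3487, 2810.1 and 2404 with ASM (-0.53 ± 0.14 SE, adjusted p = 0.119). In both genes the groups were apart, and mock, at 4156 and 3828 on average, lay between them. Without ASM replicate 1 both were called, at -0.57 (adjusted p = 0.0233) and -0.67 (adjusted p = 0.0202). They were at -0.53 and -0.57 without BABA replicate 3, not called (adjusted p = 0.119 and 0.16), and at -0.62 and -0.71 without both, called (0.0307 and 0.0309). Without ASM replicate 2 they were at -0.47 and -0.51 (adjusted p = 0.274 and 0.323). Without ASM replicate 3 they were at -0.39 and -0.40 (adjusted p = 0.393 and 0.476), and neither was called in these fits. PIP1;3 and PIP2;4, channels of the plasma membrane, went against this with differences of 0.30 and 0.21.

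All 3 root markers were lower with ASM in their values as well. None was called by limma or edgeR, 1 was by DESeq2, and 1 of 3 passed at an unadjusted p under 0.05, beside 10.7% of all genes tested. RCc3 (Os02g0662000), a root-specific gene, measured 9771, 12519 and 12315 with BABA and 7787, 5300 and 4391 with ASM (-1.02 ± 0.24 SE, adjusted p = 0.0954, and -1.25 with adjusted p = 0.0219 without ASM replicate 1). It was at -0.97 without BABA replicate 3 (adjusted p = 0.182) and at -1.20 without both (0.0481). Without ASM replicates 2 or 3 it was at -0.97 and -0.84, not called (adjusted p = 0.298 and 0.392). Lsi1 and Lsi2, the channel and the exporter of silicon, differed by -0.29 and -0.22, and in each of the 3 genes the ASM values lay below the BABA values, as in 6.16% of all genes tested. In pooled root tissue, fewer cells of a type and less RNA per cell cannot be told apart, and the part of root cell composition in the iron, aquaporin and other differences was not tested.

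Among the other lists, none of the measured members was called by limma, edgeR or DESeq2, and at an unadjusted p under 0.05 they held 1 phosphate, 1 fermentation, 1 cellulose synthase and 1 reference gene, beside 10.7% of all genes tested. The medians were 0.08 for 3 flavonoid, 0.03 for 7 abscisic acid, 0.09 for 8 antioxidant enzyme, 0.10 for 7 phosphate, 0.12 for 6 fermentation and sugar starvation, -0.21 for 6 cellulose synthase and -0.02 for 8 circadian clock genes. The 4 reference genes had a median of 0.01. Of these ACT1, an actin gene, differed by -0.26 (adjusted p = 0.312) with groups that did not overlap, as for 6.16% of all genes tested in this direction. Of 179 listed genes 176 were in the deposited table, 156 were measured at the minimum level, and the 3 WRKY genes were the only ones called.

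The number of called genes depended on single libraries, and on ASM replicate 1 above all. Without ASM replicate 1 the count was 267, with 105 higher and 162 lower, and it held 54 of the 55 genes. Without ASM replicates 2 or 3 it fell to 12 and 7, and without BABA replicates 1, 2 or 3 to 23, 17 and 31. Without both ASM replicate 1 and BABA replicate 3, a choice made after seeing the data, 204 genes were called, 70 higher and 134 lower, of which 41 were among the 55. Genes higher with ASM made up 70.9% of those called with all libraries and 39.3% and 34.3% in the 2 fits without ASM replicate 1. Calls in both directions rose in these 2 fits, and those lower with ASM rose more. All 55 genes kept the sign of their difference in each of these fits, which was fixed in advance because their groups did not overlap.

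**Figure D5:**
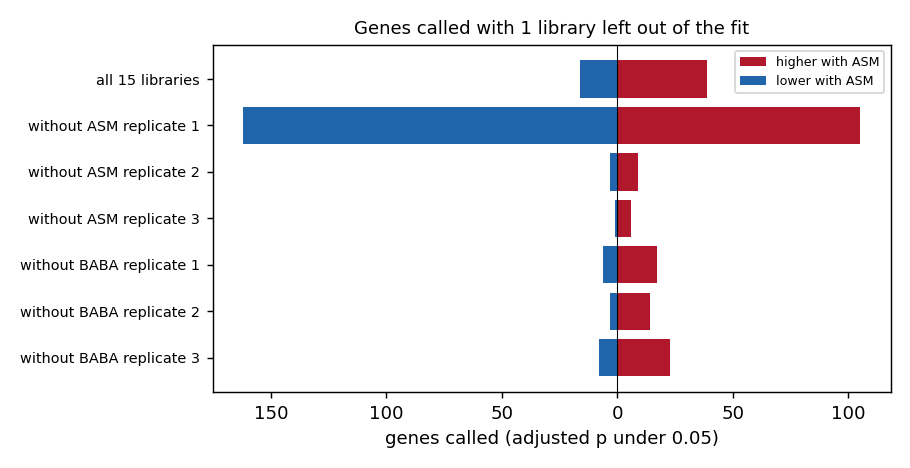
Number of genes called between ASM and BABA (x axis, adjusted p under 0.05; right, higher with ASM; left, lower with ASM) with all 15 libraries and with each of the 6 compared libraries left out (y axis). Leaving out ASM replicate 1 raised the count from 55 to 267 genes, mostly through genes lower with ASM, and leaving out any of the other 5 lowered it.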

How the data were processed

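Root RNA (2 µg per library) was made into QuantSeq 3′ libraries, per the labels' protocols. The authors deposited 1 signal value per gene and library, a read count over that library's size factor, as in DESeq2's normalised counts, and the submitters' processing notes name FastQC 0.11.8, Trimmomatic 0.38, STAR 2.6.1d and DESeq2. Genome build, annotation and strand setting were not given in the sources used here. Overlapping and antisense genes therefore cannot be told apart. Multiplied back, all values (100%) came out as whole reads, give or take 0.1. Floors of 3 reads cover counting error only.

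Differences were tested with limma 3.58.1 in R 4.3.3, its trend option on, after log2(value + 1). One model held all 15 libraries and no term but group, tests were two-sided, intervals were 95% confidence intervals, and Benjamini-Hochberg adjustment at 0.05 set the calls. The procedure was tested on simulated data. Differences of low genes are understated by the added 1. Each library is a separate pool of plants, assigned by its label. Alternatives were other pseudocounts, filters, scalings, edgeR 4.0.16 and DESeq2 1.42.0 on the recovered reads, thinned reads, a replicate block and libraries left out.

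The members and lists were chosen with earlier results of these data known. Named genes were the 10 highest and 10 lowest called genes without overlap of the groups and with a mean of 20 or more, up to 4 called members per list, and a fixed set (the 3 called WRKY genes, NPR1, PR1a, JAR1, OPR1, LHT1, CPS4, IRT1, NIA1, ACO1, RAmy3D, PAL and C4H genes). The table pairs identifiers with no names, so of the first kind only 4 identifiers are printed. Other list members and GH3-8 were named after their values were seen. Names come from general knowledge. For 122 of 177 names the RefSeq table of assembly ASM3414082v1 had a namesake on the same chromosome, 114 of them single and in matching order. It had none for 49, among them WRKY45, PR1a and the PAL genes. For 1 listed gene no result is given here.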

Additional observations from a re-analysis of the deposited data

How the results depend on the processing

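The count of 55 genes (39 higher and 16 lower with ASM) was 50 to 64 with other pseudocounts, filters, TMM scaling, quantile normalisation and edgeR. It was 173 (113 higher, 60 lower) with DESeq2, 30 (23 and 7) with reads thinned to the smallest library, and 19 (18 and 1) with only the 6 ASM and BABA libraries, where the spread rests on fewer samples. With 1 library left out it ran from 7 to 267 (6 to 105 higher, 1 to 162 lower), and without both ASM replicate 1 and BABA replicate 3 it was 204. All 55 genes kept their sign in each setting in which they were tested. With libraries left out this could not be otherwise, since the groups of these genes did not overlap. Deviations of same-numbered ASM and BABA libraries correlated at -0.19, -0.09 and -0.27, so same-numbered libraries of these groups did not deviate alike. Mock, PA1x and PA2x did not enter this comparison. For CPS4, replicate 3 was the lowest library in mock (367), BABA (234), PA1x (333) and PA2x (389), but the highest in ASM (1531). Whether replicate numbers mark a batch across the series was not tested. With a replicate block 61 genes were called, and with the block and only the 6 libraries 1 gene was (1 higher, 0 lower).

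Among the results of named genes under the alternatives, 669 of 832 kept their side of the threshold, 142 lost a call, 6 gained one and 15 turned in sign, each of the last in a gene that was not called. PAL1 turned to -0.0385 and NPR1 to -0.0216 with quantile normalisation, and NPR1 to -1.781e-05 with edgeR. With libraries left out, the differences ran from -0.24 to 0.96 for CPS4, -0.043 to 0.63 for C4H4, -0.042 to 0.55 for PAL7, -0.0728 to 0.38 for C4H1, -0.18 to 0.16 for LHT1, -0.13 to 0.17 for NPR1 and -0.25 to 0.0166 for PAL5. The salicylate and defence WRKY list had 0 to 3 called members with 1 library left out, and its median was -0.10 without both libraries that stood apart. The cause of these changes was not tested. The median half-width of the 95% confidence intervals was 0.44 on the log2 scale, so for a gene of that width a smaller difference had an interval that included 0. Most genes with an absolute difference over 1 were not called either (25 of 367 were).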
